A study of Mus musculus with 4 samples.

Results

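A group of 10 genes of cytosine methylation and polycomb silencing was followed in the colonic mucosa of C57BL/6 mice between postnatal day 30 (P30) and postnatal day 90 (P90). They were Dnmt1, Dnmt3a, Dnmt3b, Uhrf1, Tdg, Mbd1 and Apobec1 on the side of DNA methylation and deamination, and Ezh2, Eed and Suz12 of polycomb repressive complex 2. They were measured by every gene probe whose accession maps to 1 of these symbols, which gave 17 probes for 10 genes among 41174 distinct gene probes. Total RNA of mucosa scraped off with a microscope slide was hybridised to 4 oligonucleotide arrays (labelled a, b, e and k) with 2 dyes, each array holding 1 P90 and 1 P30 RNA. P90 RNA carried Cy5 on array e and Cy3 on the other 3, and no treatment or genetic change is given for either age. The labels call the 4 comparisons independent but do not say whether each animal gave 1 RNA, so an error here is the spread between 4 pairs of RNA, part of which may be technical.

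DNA methylation in mammals is laid down on CpG pairs by the de novo enzymes Dnmt3a and Dnmt3b and is copied to the daughter strand at replication by Dnmt1, which Uhrf1 brings to hemimethylated DNA. Tdg removes thymine from mismatches and oxidised methylcytosine on the way back to an unmethylated base, and Mbd1 binds methylated CpG. Polycomb repressive complex 2 methylates lysine 27 of histone H3 through Ezh2, with Suz12 as the scaffold and Eed as the subunit that binds the finished mark. Apobec1 is the cytidine deaminase that edits Apob mRNA. In the intestine the maintenance enzymes and Ezh2 are known for their expression in the dividing cells of the crypt.

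The promoters of the polycomb trio are shown first because their products form 1 complex. RefSeq windows of GRCm38.p6 ran from 250 bases before to 50 bases after a start. They were used for 9 of the 10 genes and numbered 14, some genes having several starts. Mbd1 was left out of this step, so the window counts do not cover it. The bases before the start are printed 5′ to 3′ in the gene's own direction. Capitals mark the letters CCAAT, the core of the NF-Y site, or TTTNNCGC, a form of the E2F site, on either strand.
Ezh2, chr6:47595031-47595280, minus strand: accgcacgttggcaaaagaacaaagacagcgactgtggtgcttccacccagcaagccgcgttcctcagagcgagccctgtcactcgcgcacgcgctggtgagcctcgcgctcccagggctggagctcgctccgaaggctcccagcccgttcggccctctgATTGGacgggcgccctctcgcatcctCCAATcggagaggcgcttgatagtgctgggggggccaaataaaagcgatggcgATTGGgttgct
Eed, chr7:89980977-89981226, minus strand: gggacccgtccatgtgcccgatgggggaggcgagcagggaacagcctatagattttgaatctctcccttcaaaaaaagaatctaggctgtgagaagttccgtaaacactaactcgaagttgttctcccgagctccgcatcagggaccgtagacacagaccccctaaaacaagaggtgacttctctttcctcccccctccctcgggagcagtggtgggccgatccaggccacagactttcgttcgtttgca
Suz12, chr11:79992856-79993105, plus strand: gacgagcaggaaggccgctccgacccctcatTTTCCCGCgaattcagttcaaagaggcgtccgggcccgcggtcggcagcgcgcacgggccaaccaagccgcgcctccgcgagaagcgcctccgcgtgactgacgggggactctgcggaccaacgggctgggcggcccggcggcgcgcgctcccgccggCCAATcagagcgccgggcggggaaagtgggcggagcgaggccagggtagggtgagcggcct
The windows held 31 CpG pairs for Ezh2, 17 for Eed and 41 for Suz12, against a median of 7 over all 32851 mouse windows of the same length. Over the 14 member windows the CpG count ran from 2, at 1 of 3 Dnmt1 starts, to 47, at 1 of 3 Dnmt3a starts, and the Apobec1 window held 9.

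The E2F letters occurred in 5 member windows of 4 genes, Dnmt1, Uhrf1, Ezh2 and Suz12, and in 5.17% of all windows. CCAAT occurred in 8 member windows and in 37.4% of all windows. The E2F letters contain a CpG pair, and the member windows with an E2F match held 12 to 41 CpG pairs, against a median of 7. The shares of all windows were not matched for CpG count, and windows of the same gene are not independent. Each E2F match is shown with its neighbouring bases, because the 4 genes include the maintenance pair and 2 polycomb subunits; capitals mark the matched letters. In the first Dnmt1 stretch 2 matches on the opposite strand overlap.
Dnmt1, chr9:20952823-20952852, minus strand: gtttccgcgcGCGCGAAAAAgccggggtct
Dnmt1, chr9:20952574-20952603, minus strand: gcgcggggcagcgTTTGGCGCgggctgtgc
Uhrf1, chr17:56303270-56303299, plus strand: gccccacttgcTTTCTCGCttcccgccaca
Uhrf1, chr17:56304117-56304146, plus strand: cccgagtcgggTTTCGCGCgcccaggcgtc
Ezh2, chr6:47595009-47595038, minus strand: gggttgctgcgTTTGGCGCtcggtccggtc
Suz12, chr11:79992876-79992905, plus strand: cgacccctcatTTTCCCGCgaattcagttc
A match describes the letters in the window and was not tested for binding.

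Across the 10 genes the P90/P30 ratio lay below 0 on the log2 scale in 16 of 17 probes, but no single probe passed the test. All 17 member probes were bright enough to be tested (well above background on at least 3 arrays in either age), none was saturated, and none was marked as an outlier. In limma, with Benjamini-Hochberg adjustment over 27055 tested probes and a threshold of 0.05, 0% of all probes were called higher at P90 and 0% were called lower. At an unadjusted p below 0.05, 2177 probes were counted, 1399 of them lower at P90 (5.17%) and 778 higher; the 5 member probes in this count, of Dnmt3b, Uhrf1, Eed, Tdg and Apobec1, were all lower. The smallest adjusted p of a member in limma was 0.585.

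The median log2 P90/P30 over the 17 member probes was -0.30, against -0.020 over all tested probes; without array a the member median was -0.18. Of all tested probes 54.4% had a mean below 0. By array, the member median was -0.61, -0.037, -0.14 and -0.31 on the arrays a, b, e and k, with 13, 11, 10 and 16 probes below 0. The median of all tested probes lay between -0.047 and -0.0015 on the same arrays. Of the members, 5 probes lay below 0 on all 4 arrays, where 7.75% of all probes did, and 0 of 17 lay above 0 on all 4 arrays, where 6.57% of all probes did. The members therefore sat lowest on array a and nearest to 0 on array b. On arrays a and k fewer gene spots were well above background in P90 RNA (55.6% and 57.3%) than in P30 RNA (71.0% and 69.6%). The part of this in the members' values was not tested.

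**Figure D1:**
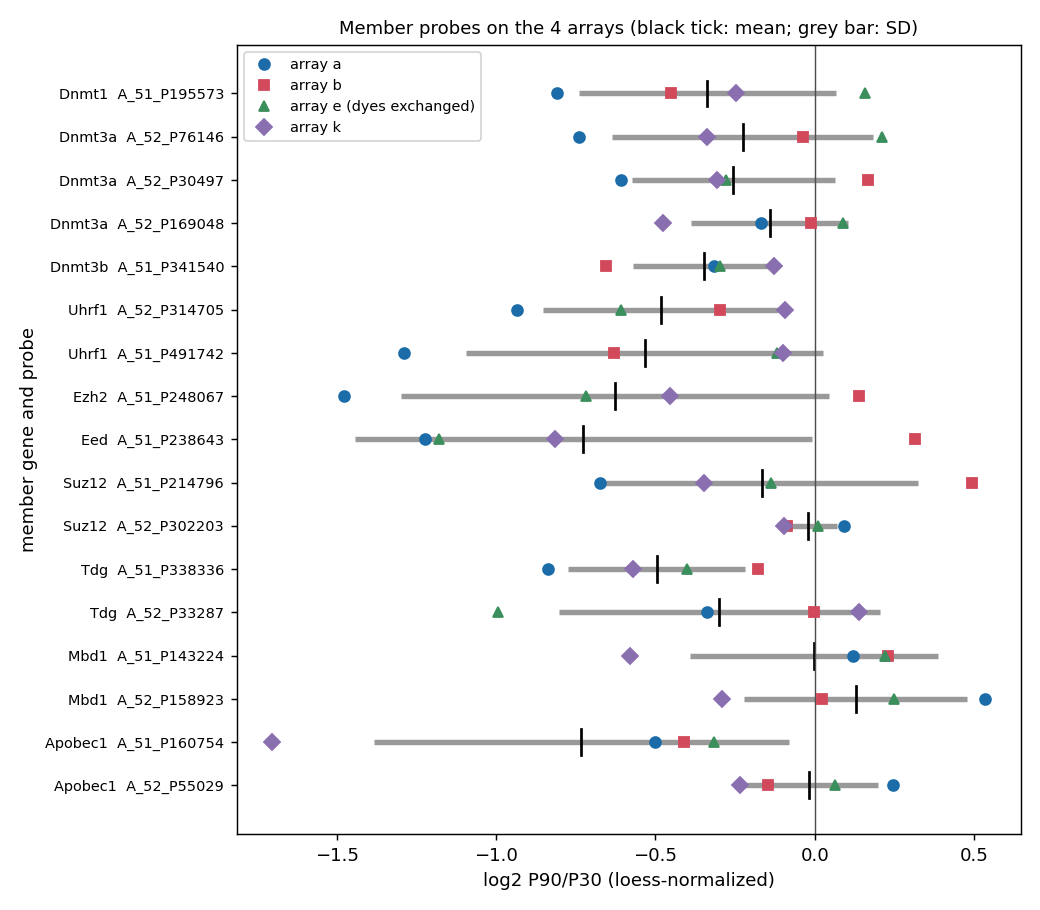
Log2 P90/P30 (x axis) of the 17 member probes (y axis), 1 point per array, with a black tick for the mean over 4 arrays and a grey bar for the SD on either side. The points of Ezh2, Eed and the brighter Suz12 probe lie above 0 for array b and below 0 for the other 3, and the Apobec1 probe A_51_P160754 reaches -1.70 on array k.

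Uhrf1, the hemimethylation reader, was measured by 2 probes that both lay below 0 on every array. The probe A_52_P314705 gave log2 P90/P30 of -0.94, -0.30, -0.61 and -0.092 on the arrays a, b, e and k. The mean was -0.48 ± 0.37 (SD, n = 4), a 1.40-fold lower signal at P90, with a 95% interval of -0.91 to -0.053 and an adjusted p in limma of 0.612. The difference was large on arrays a and e and small on k. The probe A_51_P491742 gave -1.29, -0.63, -0.12 and -0.099 on a, b, e and k (mean -0.53 ± 0.56, interval -1.10 to 0.036, adjusted p in limma 0.621), and its mean was -0.28 without array a. The probes differed from each other by 0.050 ± 0.39 (SD, n = 4) per array, within their spread, though they disagreed on the size for array e.

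In normalized log2 channel signal, the Uhrf1 probe A_52_P314705 read 11.32, 11.66, 10.84 and 11.25 in P90 RNA on a, b, e and k, and 12.26, 11.96, 11.45 and 11.35 in P30 RNA. The highest P90 signal exceeded the lowest 2 P30 signals, so the ages overlapped. The ratio within each array was below 0 all the same.

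Dnmt1, the maintenance methyltransferase, had log2 P90/P30 of -0.81, -0.45, 0.16 and -0.25 on the arrays a, b, e and k. Its mean was -0.34 ± 0.40 (SD, n = 4), or 1.26-fold lower, with an interval of -0.79 to 0.12 and an adjusted p in limma of 0.661. The arrays on which P90 carried Cy3 were below 0, and array e, with the dyes exchanged, was above; the mean was -0.50 without array e and -0.18 without array a. The fit with a dye term gave -0.17. As array e alone had the dyes exchanged, that fit cannot tell the dye from array e. Whether the dye plays a part in the Dnmt1 value was not tested.

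Dnmt3b, a de novo methyltransferase, showed the least spread among the genes below 0 on all arrays. Its probe was dim (mean log2 intensity 7.45), though well above background on all 4 arrays in both ages. With the signals processed by the authors' software its mean was -0.55. The part of the low intensity in its small spread was not tested. Its log2 P90/P30 was -0.32, -0.65, -0.30 and -0.13 on the arrays a, b, e and k (mean -0.35 ± 0.22, interval -0.69 to -0.0079, adjusted p in limma 0.616). Its P90 signals were 7.16, 7.27, 7.25 and 7.38 on the log2 scale and its P30 signals 7.48, 7.92, 7.55 and 7.51. All P90 signals lay below all P30 signals, which held for 1.66% of all tested probes. Array b was the one furthest below 0, unlike for the polycomb genes.

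Dnmt3a, the other de novo enzyme, was measured by 3 probes whose means were -0.23 ± 0.41, -0.26 ± 0.32 and -0.14 ± 0.25 (SD, n = 4). Each was below 0 on 3 of 4 arrays and their 95% intervals all covered 0. The brightest of them, A_52_P76146, maps to another transcript than the remaining pair and ran from -0.74 on array a to 0.21 on array e. Its mean was -0.055 without array a. The mean of A_52_P30497 was -0.14 without array a and -0.40 without array b, and that of A_52_P169048 was -0.030 without array k. The difference of the brightest probe from each of the remaining pair, 0.030 ± 0.31 and -0.084 ± 0.33 per array, was smaller than the spread.

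Eed, the subunit that reads the histone mark, had the largest mean difference of the 3 complex 2 members. Its log2 P90/P30 was -1.22, 0.32, -1.18 and -0.82 on the arrays a, b, e and k, with a mean of -0.73 ± 0.72 (SD, n = 4), a 1.65-fold lower signal at P90. The interval ran from -1.42 to -0.030 and the adjusted p in limma was 0.615. Its P90 signals were 10.02, 10.76, 9.62 and 9.13 and its P30 signals 11.24, 10.44, 10.80 and 9.94 on the log2 scale. In the ratio, arrays a, e and k were close to each other and array b went the other way. The ages overlapped also apart from array b, as the P90 signal on a (10.02) exceeded the P30 signal on k (9.94).

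Ezh2, the catalytic subunit, gave -1.48, 0.14, -0.72 and -0.45 on the arrays a, b, e and k. The mean was -0.63 ± 0.67 (SD, n = 4), or 1.55-fold lower, with an interval of -1.29 to 0.030 and an adjusted p in limma of 0.621. In P90 RNA the signal was 8.17, 8.70, 7.65 and 8.02 and in P30 RNA 9.65, 8.57, 8.36 and 8.47 on the log2 scale. Array a carried much of the mean, which was -0.34 without it and -0.88 without array b.

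Suz12, the scaffold, differed in sign between arrays. The brighter probe, A_51_P214796, had the signs of Ezh2 and Eed on each array and a mean nearer to 0. It gave -0.67, 0.49, -0.14 and -0.35 on a, b, e and k (mean -0.17 ± 0.49, interval -0.68 to 0.35, adjusted p in limma 0.872). The dimmer probe, A_52_P302203, was well above background in P90 RNA on 3 of 4 arrays and gave 0.091, -0.086, 0.012 and -0.098, with a mean of -0.020 ± 0.089 and without those signs. A pattern of values below 0 on a, e and k and above 0 on b was found in 20.0% of all tested probes and in 4 of 17 member probes, 1 each of Ezh2, Eed, Suz12 and Dnmt3a, a share near that of all probes. The median of the polycomb trio was -1.22, 0.32, -0.72 and -0.45 on a, b, e and k, and that of the other 7 genes -0.74, -0.30, -0.30 and -0.34.

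**Figure D2:**
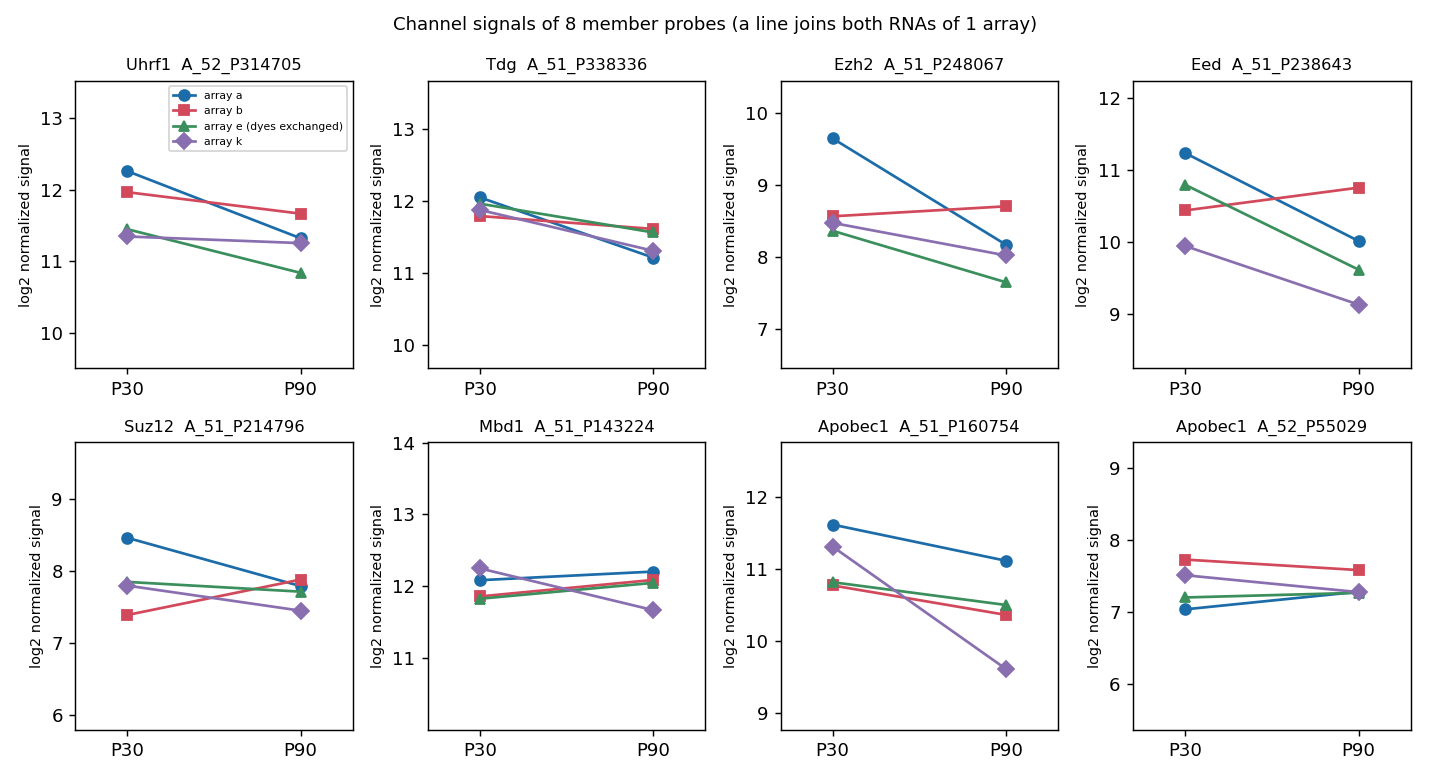
Normalized log2 signal (y axis) of selected member probes in P30 and P90 RNA (x axis), with a line joining the 2 RNAs of each array. The lines of Eed and Ezh2 go up on array b and down on the other 3 arrays, while those of Tdg go down on all 4.

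Tdg, the thymine DNA glycosylase, had the smallest p of all members. Its brighter probe, A_51_P338336, gave log2 P90/P30 of -0.84, -0.18, -0.40 and -0.57 on the arrays a, b, e and k. The mean was -0.50 ± 0.28 (SD, n = 4), a 1.41-fold lower signal, with an interval of -0.87 to -0.12 and an adjusted p in limma of 0.585. The P90 signals, 11.21, 11.61, 11.56 and 11.31, all lay below the P30 signals, 12.05, 11.79, 11.96 and 11.88. The same held for 1.66% of all tested probes and, among the members, otherwise for Dnmt3b alone. A second Tdg probe for another transcript, A_52_P33287, was less even, at -0.34, -0.0034, -0.995 and 0.14 on a, b, e and k (mean -0.30 ± 0.50, and -0.067 without array e).

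Mbd1, the methyl-CpG reader, stayed near 0 in the mean. Its brighter probe, A_51_P143224, gave 0.12, 0.23, 0.22 and -0.58 on a, b, e and k (mean -0.0025 ± 0.39, interval -0.45 to 0.44). Array k alone was below 0. The other probe, A_52_P158923, gave 0.53, 0.022, 0.25 and -0.29 (mean 0.13 ± 0.35, interval -0.29 to 0.55) and was the single member probe with a mean above 0. The interval of the brighter probe holds the means of Dnmt1 and Dnmt3b, and that of the other probe does not reach them. Both Mbd1 intervals overlap those of Dnmt1 (-0.79 to 0.12) and Dnmt3b (-0.69 to -0.0079). The difference between these genes was not tested.

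Apobec1, the Apob mRNA editing deaminase, had the lowest mean of all members in one probe and a mean near 0 in the other. The brighter probe, A_51_P160754, gave -0.50, -0.41, -0.32 and -1.70 on the arrays a, b, e and k (mean -0.73 ± 0.65, 1.66-fold lower, interval -1.37 to -0.091, adjusted p in limma 0.609). Without array k the mean was -0.41. The dimmer probe, A_52_P55029, gave 0.24, -0.15, 0.065 and -0.24, with a mean of -0.018 ± 0.22. The brighter probe read lower than the dimmer one on every array, by -0.72 ± 0.54 in log2 P90/P30, so the Apobec1 value depends on the probe.

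Genes around these enzymes were taken from lists of their pathway, each gene by its brightest tested probe. In limma 0 genes of any list were called, with 0% of all probes called. Of 6 partners of the DNA methyltransferases 6 had a mean below 0 (median -0.16), among them Usp7, the deubiquitinase that stabilises Dnmt1, at -0.58 ± 0.88 and Trdmt1, a tRNA methyltransferase of the same family, at -0.59 ± 0.47. Dmap1, which binds Dnmt1, was at -0.00093 ± 0.35. Of 8 tested methyl-CpG readers 5 lay below 0 (median -0.21), from Mbd2 at -0.38 ± 0.43 to Mbd6 at 0.30 ± 0.36, with Zbtb4 at -0.19 ± 0.73. The spreads of these genes were as large as or larger than most of the means.

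Of 15 tested genes of oxidation, deamination and base excision repair 10 lay below 0, with a median of -0.049. Gadd45b and Gadd45a, stress proteins with a proposed role in demethylation, stood at opposite ends with 0.60 ± 0.71 and -0.43 ± 0.68, Gadd45g was at -0.049 ± 0.48, and the repair scaffold Xrcc1 was at -0.16 ± 0.33. Of 12 genes of methyl donor supply and turnover 7 lay below 0 (median -0.024). Ahcy, which clears S-adenosylhomocysteine, was at 0.25 ± 0.46 and Srm, the spermidine synthase, at -0.35 ± 0.94. Mat2b, a subunit of methionine adenosyltransferase, was at 0.049 ± 0.39, and its catalytic partner Mat2a was at 0.21 ± 0.49, with its P30 signal saturated on 2 arrays and a mean of 0.55 when saturated spots were left out. These lists lay nearer to the median of all probes than the members did.

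Of 8 other genes of polycomb repressive complex 2, 6 had a mean below 0, with a median of -0.13. The histone-binding subunits Rbbp4 and Rbbp7 were at -0.071 ± 0.086 and -0.49 ± 0.49. Phf1, an accessory subunit that binds methylated histone H3, was above 0 on all arrays, with 1.14, 0.54, 0.88 and 0.29 on a, b, e and k (mean 0.71 ± 0.37). Ezh1, the paralog of Ezh2, was looked at after its values had been seen. It was above 0 on all arrays, at 0.48, 0.19, 0.46 and 0.64 on a, b, e and k (mean 0.44 ± 0.19, adjusted p in limma 0.585). Ezh2 minus Ezh1 was -1.96, -0.052, -1.18 and -1.10 on the same arrays, a mean of -1.07 ± 0.78 (SD, n = 4). That mean was -0.77 without array a and -1.41 without array b.

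Of 17 tested genes of polycomb repressive complex 1, which ubiquitinates histone H2A, 8 lay below 0, with a median of 0.074. Cbx7, a reader of methylated lysine 27, was above 0 on all 4 arrays at 0.52 ± 0.27, while the ubiquitin ligase Rnf2 was at -0.80 ± 1.34, its adaptor Yaf2 at -0.44 ± 0.51 and Phc2 at 0.12 ± 0.16. The lysine 27 demethylases Kdm6a and Kdm6b were at -0.12 ± 0.56 and 0.046 ± 0.41. Of 7 loci known to be silenced by these systems 3 had a tested probe. The cell cycle inhibitors Cdkn1c and Cdkn2b were at 0.49 ± 0.27 and 0.19 ± 0.16. Igf2 was at 0.050 ± 0.50, with signs that differed between arrays. By array, the median of the genes of polycomb repressive complex 1 was -0.10, 0.093, -0.092 and -0.097 on a, b, e and k. On these arrays 9, 7, 9 and 9 of the 17 genes lay below 0. The medians had the signs of that of Ezh2, Eed and Suz12 but lay near 0. The difference between these groups was not tested.

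**Figure D3:**
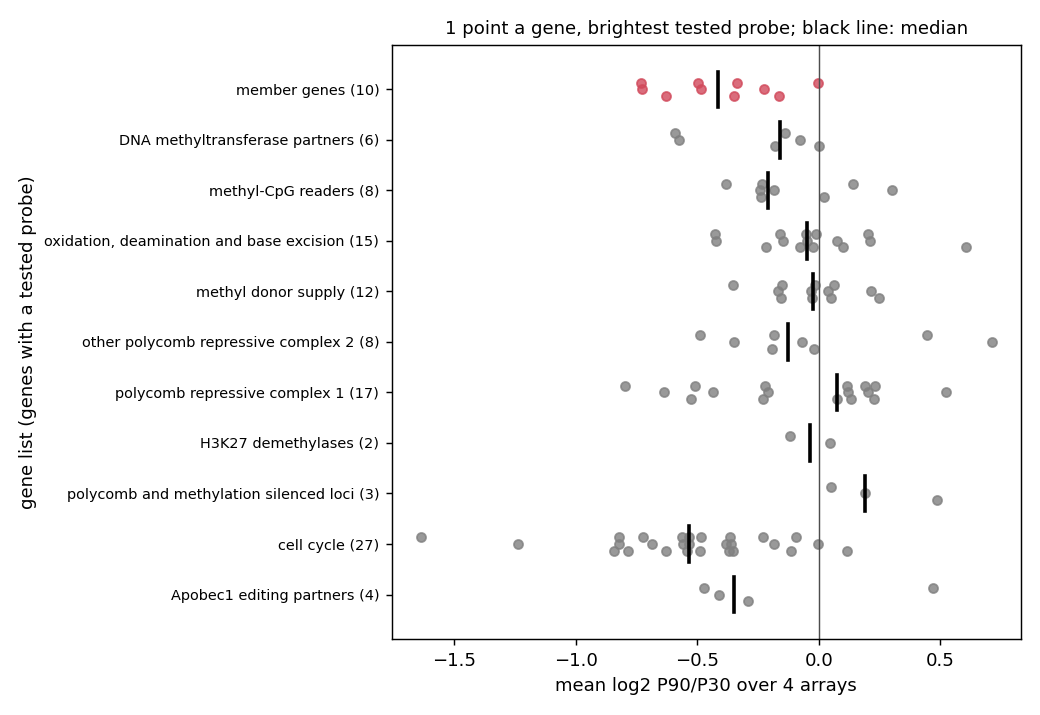
Mean log2 P90/P30 over 4 arrays (x axis) of each gene by its brightest tested probe, by list (y axis), with a black line for the list's median. The member genes lie at or below 0 with a median of -0.42, the cell cycle list has a median of -0.53, and the remaining lists of chromatin and methylation genes have medians between -0.21 and 0.19; the 4 editing partners of Apobec1 are at -0.35.

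Cell cycle genes were set beside the members because Dnmt1, Uhrf1 and Ezh2 are known to be expressed in dividing cells. Of 27 such genes 26 had a mean below 0 and 15 lay below 0 on all 4 arrays, where 7.75% of all probes did; the list's median was -0.53. By array the median was -0.75, -0.60, -0.36 and -0.16 on the arrays a, b, e and k. Ccna2, an S and G2 cyclin, was at -1.64 ± 0.93, Birc5, a mitotic survivin, at -0.82 ± 0.29, the helicase subunit Mcm6 at -0.56 ± 0.52, and the spindle checkpoint kinase Bub1 at 0.12 ± 0.55. The list's median was below 0 on array b, as were 25 of its 27 genes, while the polycomb trio was above 0 there. Mki67, at -1.82, 0.37, -1.22 and -0.47 on a, b, e and k, had the signs of the trio. So did Top2a, at -1.70, 0.0048, -0.54 and -0.28. In tissue RNA, fewer cells of a type and less RNA per cell cannot be told apart, and the part of dividing cells in the members' values was not tested.

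For Apobec1, 3 of 4 partners and targets of its editing had a mean below 0. Rbm47, an RNA-binding cofactor, was at -0.41 ± 0.79, and Syncrip, another RNA-binding protein, at -0.47 ± 0.87. Apob itself, the edited mRNA, was at 0.47 ± 0.76. Each of these 3 genes had a spread larger than its mean.

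Genes with values nearest to a member were found by the root mean square difference over 4 arrays among 13912 other genes with a symbol. For Ezh2 they were Tpst1 (0.013), Brd7 (0.058) and Pus3 (0.067), and for Eed they were Emc2 (0.047), Clpx (0.065) and Map7 (0.080). For Uhrf1 they were Ccdc77 (0.034), Hmgn2 (0.050) and Dsn1 (0.059), and for Dnmt1 Haus4 (0.108), Pole4 (0.109) and Rpl6 (0.117). With 4 arrays and this many genes, close matches are a description of these arrays alone.

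The 4 arrays did not run in parallel, and markers of other cell types moved with them. Over all tested probes the ratios correlated at 0.597 for a and e, 0.441 for a and k and 0.316 for e and k, while array b correlated at -0.312 with a, -0.281 with e and -0.180 with k. The labelled direction was kept for array b because the labels give its dyes, though it opposes arrays of the same dye orientation. All 6 fibroblast markers (Col1a1, Col1a2, Col3a1, Pdgfra, Dcn, Lum) were tested, and their median was -3.93, 1.45, -2.32 and -3.22 on a, b, e and k, the same order of signs as for Ezh2, Eed and Suz12. Their summed signal was 1966 to 28477 in P90 RNA and 10411 to 85880 in P30 RNA. The 4 endothelial markers had medians of -0.91, 0.93, -0.77 and -1.51 (summed signal 704 to 2814 in P90 and 1088 to 5169 in P30), again above 0 on b alone.

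Adipocyte markers had medians of 0.41, 2.35, 5.78 and 0.65 on a, b, e and k, with a summed signal of 6201 to 183960 in P90 and 3587 to 12368 in P30. The 11 tested immune markers had medians of -0.22, 0.77, 0.026 and -0.056 (summed signal 1605 to 2724 in P90 and 1566 to 3513 in P30). They differed in sign, with 7, 2, 5 and 7 markers below 0 on a, b, e and k. Their means over 4 arrays ran from -0.85 for Adgre1 to 0.47 for Cd8a. The 5 smooth muscle markers had medians of 0.86, 0.85, 0.999 and -1.22, with 2, 1, 1 and 5 markers below 0 on a, b, e and k. Their median was below 0 on array k alone, though single markers differed in sign. Colonic epithelium was present at a summed signal of 467540 to 598270 in P90 and 422320 to 526820 in P30 over 11 tested markers, 7 of them saturated on at least 1 array. The part of these cell types in the members' values was not tested.

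**Figure D4:**
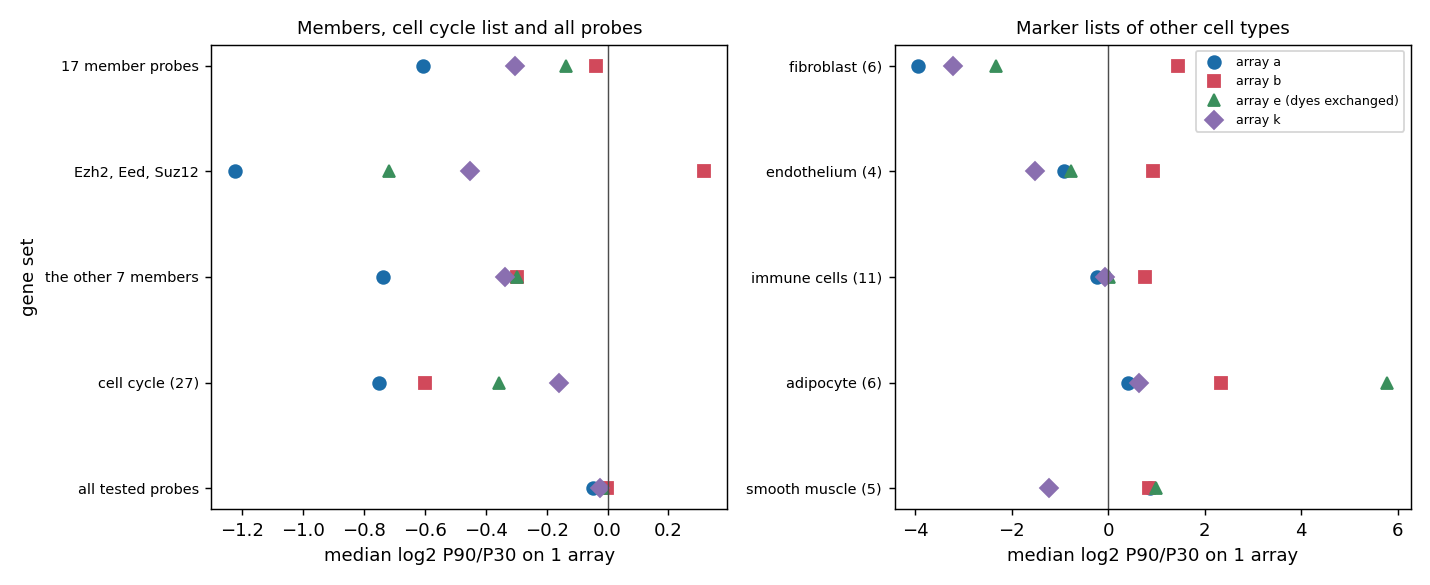
Median log2 P90/P30 on each array (x axis) for the members, the cell cycle list and all tested probes (left) and for marker lists of other cell types (right), with the number of genes in parentheses. Array b is above 0 for the polycomb trio (0.32), fibroblast (1.45) and endothelium (0.93) lists and below 0 for the cell cycle list (-0.60).

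With array b turned, the median over the member probes was -0.22, Eed was at -0.88, Ezh2 at -0.70 and Uhrf1 (A_52_P314705) at -0.33. Turned this way, Dnmt1 was at -0.11, Dnmt3b at -0.022 and Uhrf1 (A_51_P491742) at -0.22, each more than 1.5 times nearer to 0 than as labelled. The smallest adjusted p of a member in limma was then 0.0809, and it was 0.0811 with array b left out, where Eed was at -1.07. Across the alternatives that were run, no member probe passed the threshold.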

How the data were processed

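C57BL/6 colonic mucosa at P90 and P30 was compared on 4 arrays, 1 RNA pair per array. Spots in the deposited scanner files are given as intensity (median spot and local background brightness on a linear scale), per the file headers before normalization. Signals that the authors' software had background-subtracted and scaled per dye gave the deposited ratios, on a log10 scale with Cy5 over Cy3. Per the file headers it was Agilent Feature Extraction 10.5.1.1, and per the submitters' processing notes 8.5.1.1. The deposited value table was read as log2 ratios of P90 over P30. Its values matched the deposited ratios within 0.01 for 80.0% (a), 87.0% (b), 86.5% (e) and 80.5% (k) of probes. They correlated with those ratios at 0.887, 0.993, 0.999 and 0.882 on a, b, e and k. The match was therefore poorer on a and k, for a reason that was not tested. The column medians were 0.205, -0.170, 0.049 and 0.167. Outlier, background and saturation marks (other, without unit) came from the deposited scanner files.

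Here the median intensities were corrected with normexp (offset 50) and loess (span 0.3, weighting controls at 0), using R 4.3.3 with limma 3.58.1. Outlier spots (127 to 156 gene spots per array) were left out and every log2 ratio was turned to P90 over P30. Channel signals were then scaled between arrays with Aquantile. A probe was tested when well above background in P90 or in P30 RNA on at least 3 arrays (27055 of 41174). Gene spots well above background made up 55.6%, 69.3%, 65.4% and 57.3% in P90 RNA on a, b, e and k. In P30 RNA they made up 71.0%, 66.6%, 64.6% and 69.6%, so the P90 share was the lower on a and k. The mean was tested against 0 with lmFit and eBayes, two-sided, with Benjamini-Hochberg adjustment over all tested probes; intervals are moderated 95% intervals. The 4 arrays limit the precision. The fit was tested on simulated data. All arrays lay on 1 slide with 1 scan time, so no batch could be examined.

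Probes were named through RefSeq accessions (25097 of 41174); probe coordinates are not given, as the array design and the RefSeq windows use different builds. The members and lists were chosen with earlier results of these data known. Named genes are all members with every probe and the 3 nearest genes of Dnmt1, Uhrf1, Ezh2 and Eed. From each list they are the genes past the threshold or, failing that, the brightest 2 and the largest mean in each direction. Ezh1, Mki67, Top2a and Igf2 were added after their values were seen. Alternatives covered background correction, normalization, the deposited ratios, filters, saturation, array weights, a dye term, array b turned and each array left out. A further marker list is not reported here.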

Additional observations from a re-analysis of the deposited data

Results flagged for a closer look

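In 3 of the 62 results examined, a single array lay further from the other 3 than Dixon's 95% critical value for the gap over the range of 4 values allows. The Mbd1 probe A_51_P143224 read -0.58 on array k, with 0.12 as the nearest of the other arrays (gap ratio 0.865). The Apobec1 probe A_51_P160754 read -1.70 on array k, with -0.50 as the nearest (gap ratio 0.866). Dmap1 read -0.53 on array b, with 0.15 as the nearest (gap ratio 0.938). Chance alone flags about 1 in 20 such groups of 4, so a few are to be looked for among this many results.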

How the results depend on the processing

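No member probe passed limma's threshold under any alternative run, and leaving out 1 array at a time called no member. The number of probes called higher at P90 was 0 here, 1 with an offset of 16, and 3 each with the processed signals, the deposited log ratio and the value table. Median centring moved the members' median to -0.58 and that of all tested probes to -0.20, a shift of all probes; relative to it the members stood at -0.38. It also turned Mbd1 (A_52_P158923) to -0.26, Mbd6 to -0.057, Mat2a to -0.064, Mat2b to -0.31, Ahcy to -0.12, Phc2 to -0.25, Kdm6b to -0.36, Cdkn2b to -0.14 and Bub1 to -0.26, and put 72.1% of all probes below 0.

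The cause of the other reversals was not tested. The offset of 16 gave Mbd1 (A_51_P143224) 0.026 and Dmap1 0.033; processed signals gave 0.047, Dmap1 0.074 and Gadd45g 0.013. The deposited log ratio gave Mbd1 0.12, Dmap1 0.12, Gadd45g 0.12, Rbbp4 0.099 and Rpl6 0.0098, and the first 4 of these were 0.078, 0.080, 0.080 and 0.058 in the series' value table. Array weights gave Apobec1 (A_52_P55029) 0.0041, Dmap1 0.12, Gadd45g 0.091, Mat2b -0.054 and Kdm6b -0.0062. A dye term gave Mbd1 0.072, Apobec1 0.0096, Dmap1 0.064, Gadd45g 0.13 and Mat2b -0.11. With array b turned, Suz12 (A_52_P302203) was 0.023, Apobec1 0.055, Dmap1 0.26, Mbd6 -0.035, Gadd45g 0.27, Mat2b -0.18, Srm 0.39, Phc2 -0.018, Kdm6b -0.10 and Apob -0.21; the means of Srm (-0.35), Apob (0.47) and Mbd6 (0.30) were not near 0 as labelled.

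Leaving out each array in turn, the range was -0.39 to 0.0029 for Suz12 (A_51_P214796), -0.057 to 0.0055 for its other probe, -0.080 to 0.19 and -0.0066 to 0.27 for the Mbd1 probes, and -0.11 to 0.055 for Apobec1 (A_52_P55029). It was -0.065 to 0.18 for Dmap1, -0.53 to 0.032 for Zbtb4, -0.23 to 0.15 for Gadd45g, -0.090 to 0.21 for Mat2b, -0.62 to 0.021 for Srm, -0.100 to 0.19 for Kdm6b, -0.34 to 0.080 for Kdm6a and -0.052 to 0.34 for Bub1. The number of probes at an unadjusted p below 0.05 ran from 921 without array a to 6628 with array b turned, with 6255 without array b. The test of the ratio within each array is itself the paired analysis, so no further replicate block was fitted. Among dim probes, Dnmt3a (A_52_P169048) was at -0.46 with the processed signals and -0.50 with the deposited log ratio, and Dnmt3b at -0.55 and -0.60, against -0.14 and -0.35 here.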
